A study of Mus musculus with 12 samples.

Results

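The genes of skeletal muscle calcium release and uptake are described here across 12 arrays of mouse tibialis anterior muscle regenerating after injury. Membership was given by name: Ryr1, Cacna1s, Atp2a1, Atp2a2, Casq1, Casq2, Jph1, Jph2, Sln and Pvalb. Each gene was read from the transcript cluster (the set of array probes for 1 gene) that carried its symbol alone, and where a gene had several, from the one with the highest mean over the 12 arrays. All 10 of the 10 genes had such a cluster, out of 19752 genes on the array, and 9 of the 10 were brighter than the median gene, Sln being the exception.

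Muscle was injured with cardiotoxin, a snake toxin that kills fibres and sets off their regrowth, in C57BL/6 mice of 8 weeks. The first pair of groups came from Foxp3-DTR+ mice on day 8, given amphiregulin (AREG) in one group and PBS in the other. The second pair came from Foxp3-DTR- mice on day 4, again given AREG or PBS, and each of the 4 groups had 3 arrays. All 4 groups had received diphtheria toxin, which kills Foxp3-expressing regulatory T cells in mice that carry the toxin's receptor (DTR+) and leaves them in mice without it. AREG is a ligand of the EGF receptor and PBS, a saline buffer, was its vehicle, and both were given into the muscle and then into the abdomen. Day and genotype changed together, so their effects cannot be told apart. The labels do not say that the arrays came from separate animals, so p-values measure the spread between these samples, which may be technical.

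In a muscle fibre the action potential runs along the surface membrane into the t-tubules, where a voltage-sensing calcium channel touches the calcium release channel of the sarcoplasmic reticulum, the internal calcium store. Release sets off contraction, and pumps in the store membrane then return the calcium, while a soluble buffer in fast fibres speeds relaxation. Several of these proteins come in a fast-fibre form and a form shared by slow fibres and heart, and fibres that are still forming also use some of the slow and heart forms.

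Array medians ran from 134 to 143 intensity units. Of the fast-fibre genes 16 of 16 were brighter than the median gene, and of the heart genes 2 of 8, a description only, since the levels of different probes cannot be compared. Foxp3, which marks the cells the toxin targets, read 89.7 to 107 in the 12 arrays, and day 8 minus day 4 was -0.02 ± 0.11 in PBS muscle (log2 ± SE of the limma fit, adjusted p = 0.955), so it gives no check of the depletion. The first AREG array of day 4 and the first PBS array of day 4 had the narrowest spread of values (interquartile ranges of 2.19 and 2.37 log2 units), and the third AREG array of day 8 stood apart in several genes named further on.

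Of the 10 genes 1 was called at day 4, Casq2, which was lower in AREG muscle (limma, Benjamini-Hochberg adjusted p under 0.05 over 19752 genes). The same rule called 2.9% of all genes, 0.79% higher and 2.11% lower. An unadjusted p under 0.05 was reached by 5 of 10, Ryr1, Cacna1s, Jph1, Jph2 and Casq2, against 17% of all genes. With replicate numbers fitted as a block, the count called at day 4 was 2 instead of 1, Cacna1s joining Casq2. That fit called 4.63% of all genes.

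At day 8 limma called 0 of 10 members between AREG and PBS, with 0 of 10 at an unadjusted p under 0.05, against 0.00506% of all genes called and 7.62% at the unadjusted threshold. Between the days Sln was the only member called, higher at day 8 under both treatments. The rule called 0.719% of all genes in the AREG day comparison (0.527% higher and 0.192% lower) and 2.34% in the PBS day comparison (1.19% higher and 1.15% lower). Unadjusted p under 0.05 was reached by 3 of 10 in AREG muscle, against 10.3% of all genes, and by 3 of 10 in PBS muscle, against 13.1%.

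Beside these calls, the day 4 AREG values ran mostly one way. 7 of the 10 genes were higher in every AREG array than in every PBS array, namely Ryr1, Cacna1s, Atp2a1, Casq1, Jph1, Jph2 and Pvalb, where 10.2% of all genes had groups that did not overlap in that direction, and Casq2 was lower in every AREG array, where 12% of all genes were. The median difference of the members was 0.21 on the log2 scale against 0.04 over all genes. Of the fast-fibre genes 16 of 16 had a positive difference, with a median of 0.23, and 1 of 16 was called, Tcap, a protein of the sarcomere's edge. Adipocyte genes ran the same way, with 9 of 9 positive, a median of 0.71 and 3 of 9 called higher, against 0.79% of all genes. Endothelial genes had 9 of 10 positive with a median of 0.23 and 0 of 10 called. In whole muscle a change in the number of fibres and a change in RNA per fibre cannot be told apart. The part of fibre content or of other cell types in these values was not tested.

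**Figure D1:**
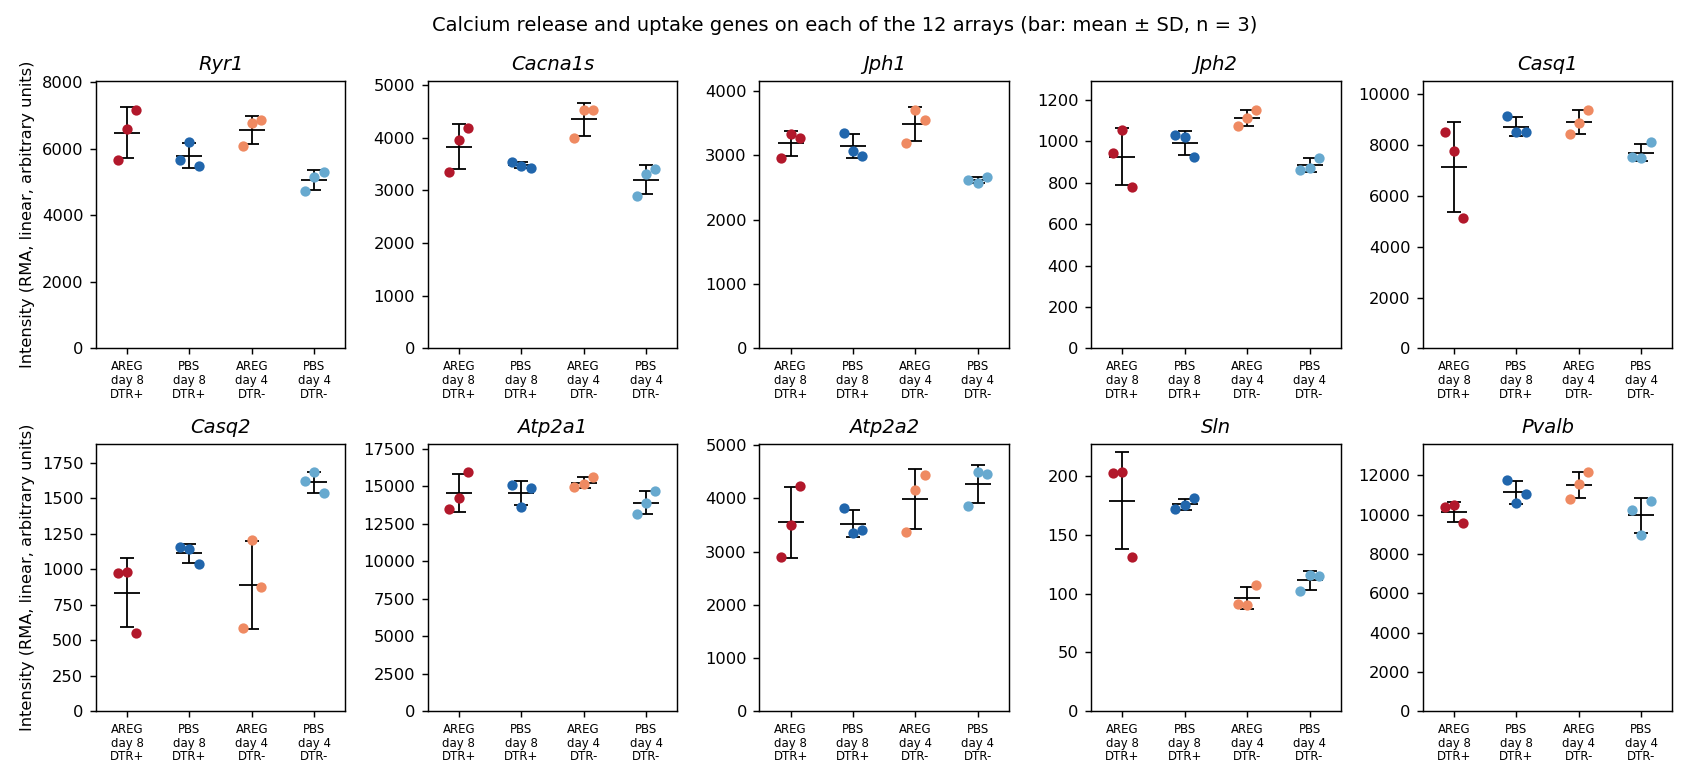
Intensity of each of the 10 genes (1 panel each, linear axis in intensity units that starts at 0) in the 12 arrays, with points for arrays and bars for the group mean ± SD (n = 3), the groups running AREG and then PBS at day 8, then AREG and PBS at day 4. Sln stands higher in all 6 day 8 arrays than in all 6 day 4 arrays, and Casq2 is lower in the 3 AREG arrays than in the 3 PBS arrays at day 4, its lowest point being the third AREG array of day 8 at 552.

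The voltage sensor and the release channel were the closest pair of the set over the arrays. Cacna1s encodes the pore and voltage sensor of the t-tubule calcium channel. Its intensity was 3990, 4530 and 4519 in the AREG arrays of day 4, against 2889, 3310 and 3409 in the PBS arrays of day 4. All 3 AREG arrays were above all 3 PBS arrays, by 0.44 ± 0.12 on the log2 scale (1.36-fold, adjusted p = 0.0539), which just missed the threshold; with the replicate block the same difference passed it (adjusted p = 0.0412). At day 8 it read 3354, 3954 and 4178 in AREG arrays, against 3542, 3465 and 3428 in PBS arrays, so that the groups overlapped (0.13 ± 0.12, adjusted p = 0.815).

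Ryr1 encodes the release channel itself, opened in skeletal muscle by contact with the voltage sensor. It read 6078, 6767 and 6863 in AREG arrays of day 4, against 4733, 5144 and 5296 in PBS arrays of day 4. The groups did not overlap, and the difference of 0.38 ± 0.12 (1.30-fold) did not pass over all genes (adjusted p = 0.0935). At day 8 the AREG arrays read 5677, 6604 and 7176, against 5668, 6209 and 5495 in PBS arrays, and the log2 difference was 0.16 with an interval of -0.09 to 0.41. Compared over the 12 arrays, each gene centred on its own mean, Ryr1 and Cacna1s differed by a root mean square of 0.0773 log2 units, the smallest of all member pairs, and Ryr1 with Jph1 and Cacna1s with Jph1 came next at 0.0924 and 0.0939. Genes outside the set came closer to each of the pair, Dst to Ryr1 at 0.0441 and Adcy9 to Cacna1s at 0.0723. These likenesses describe the same arrays and carry no test.

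The junctophilins hold the t-tubule membrane to the store membrane, and Jph1 is the form that predominates in skeletal muscle while Jph2 is shared with heart. Jph1 read 3191, 3708 and 3550 in AREG arrays of day 4, against 2615, 2568 and 2665 in PBS arrays of day 4. The PBS values lay within a narrow band and every AREG value lay above it (0.41 ± 0.11, 1.33-fold, adjusted p = 0.0501, just above the threshold). At day 8 Jph1 read 2959, 3323 and 3269 in AREG arrays, against 3353, 3073 and 2996 in PBS arrays, a difference of 0.02 ± 0.11 with overlapping groups.

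Jph2 was similar at day 4, with 1074, 1115 and 1153 in AREG arrays, against 860, 871 and 922 in PBS arrays (0.33 ± 0.12, adjusted p = 0.146). At day 8 its values were 944, 1054 and 781 in AREG arrays, against 1030, 1021 and 925 in PBS arrays (-0.11 ± 0.12). Jph1 and Jph2 each had a second cluster with the same sign at day 4, at 0.61 and 0.52 on the log2 scale. At day 8 these second clusters gave -0.05 and -0.04. The day 8 effect of AREG minus the day 4 effect was -0.39 ± 0.15 for Jph1 and -0.44 ± 0.17 for Jph2, with adjusted p of 0.790 and 0.785, so no difference between the settings passed.

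The calsequestrins, which bind calcium inside the store, gave the one AREG call, and the differences of the 2 paralogues had opposite signs at day 4. Casq1 is the form of fast fibres, and Casq2 that of heart, of slow fibres and of fibres not yet mature. No test compared the pair with each other, and at day 8 both differences were negative. The upstream sequence of Casq2 is printed because it carried the AREG call, and that of Casq1 as its paralogue. They are the 250 bases before the start of transcription, 5′ to 3′ on the gene's strand, from RefSeq on GRCm38.p6, at chr1:172219896-172220145 (minus strand) for Casq1 and chr3:102086165-102086414 (plus strand) for Casq2. Capitals mark matches to the E-box, CANNTG, the letters bound by myogenic factors such as MyoD, and to the MEF2 motif, bound by the MEF2 factors, on both strands.
Casq1: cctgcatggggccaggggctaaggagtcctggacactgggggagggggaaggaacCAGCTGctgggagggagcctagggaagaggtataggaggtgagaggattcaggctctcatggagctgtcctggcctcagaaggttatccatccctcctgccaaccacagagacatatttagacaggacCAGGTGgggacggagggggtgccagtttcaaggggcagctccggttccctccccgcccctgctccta
Casq2: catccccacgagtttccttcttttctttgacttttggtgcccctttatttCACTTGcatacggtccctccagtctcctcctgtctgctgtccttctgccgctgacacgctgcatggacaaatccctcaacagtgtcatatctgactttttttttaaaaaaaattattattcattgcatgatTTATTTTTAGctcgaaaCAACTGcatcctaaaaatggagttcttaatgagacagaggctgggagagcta

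Both windows held 2 E-boxes, starting 195 and 67 bases upstream in Casq1 and 200 and 52 bases upstream in Casq2. Only the Casq2 window held a match to MEF2, starting 69 bases upstream and not overlapping an E-box. Among the 32851 RefSeq promoters of the table, windows of 250 bases held an E-box in 66.2% and a MEF2 match in 2.92%. Of the 10 members 7 had an entry, in 9 windows, of which 7 held an E-box and 2 a MEF2 match. The Jph2 windows overlap and hold the same E-box, which is counted in both. The second MEF2 match was at a Pvalb start. A match describes letters, and no binding was measured.

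Casq2 read 588, 1204 and 877 in AREG arrays of day 4, against 1620, 1682 and 1534 in PBS arrays of day 4. The PBS arrays lay close together and the AREG arrays spread more than 2-fold among themselves, all of them below the PBS arrays. Casq2 fell in AREG muscle by 0.92 on the log2 scale (SE 0.23, 95% interval -1.41 to -0.43, 1.89-fold, adjusted p = 0.0463). The call was lost without the first or the third AREG array of day 4, any PBS array of day 4, the second AREG array of day 8 or any PBS array of day 8 (adjusted p = 0.0576 to 0.229). Without the first AREG array of day 4 the difference itself was -0.65 (adjusted p = 0.145). Over the 22 alternative settings run for it the call was kept in 9, with the same sign in all and a range of -1.17 to -0.65.

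At day 8 Casq2 read 972, 979 and 552 in AREG arrays, against 1158, 1144 and 1034 in PBS arrays. The groups again did not overlap, AREG being lower, but the difference of -0.46 ± 0.23 did not pass (adjusted p = 0.676) and was -0.19 without the third AREG array. At day 8, 2 of 10 members were lower in every AREG array, Casq2 and Pvalb, against 7.14% of all genes, and 0 of 10 were higher in every AREG array, against 7.06%. The mean of the day 4 and day 8 effects passed for Casq2 alone of the members (-0.69 ± 0.16, adjusted p = 0.0347), where limma called 3.41% of all genes (2.99% lower). With the replicate block it passed for Cacna1s as well (0.29, adjusted p = 0.0491), where 5.59% of all genes were called. The Casq2 mean effect lost its call without 8 of the 12 arrays taken singly (adjusted p = 0.0536 to 0.107). The difference between the effects did not pass (0.46 ± 0.33, adjusted p = 0.983), and limma called 0 of 10 members for it, with 0% of all genes called. An unadjusted p under 0.05 was reached for this difference by 4 of 10, Casq1, Jph1, Jph2 and Pvalb, against 5.87% of all genes, and for the mean effect by 4 of 10, Ryr1, Cacna1s, Casq2 and Jph1, against 18%.

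Casq1 was not called at day 4. It read 8449, 8851 and 9395 in AREG arrays, against 7541, 7479 and 8104 in PBS arrays, so that the groups did not overlap while the difference was within the test's error (0.21 ± 0.15, adjusted p = 0.589). At day 8 it read 8531, 7756 and 5121 in AREG arrays, against 9155, 8501 and 8502 in PBS arrays. The third AREG array was the lowest of all 12 for Casq1, and leaving it out changed the day 8 difference to -0.10, against -0.32 ± 0.15 with it.

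Genes of regenerating fibres are set beside Casq2. The 13 measured genes of that list, which include the fusion factor Mymk and embryonic forms of contractile genes, were all lower in AREG muscle at day 4, and 6 of the 13 were called lower (median -1.06), against 2.11% of all genes. Their summed intensity was 19580 to 26956 in AREG arrays of day 4, against 30969 to 42736 in PBS arrays of day 4. At day 8 the sum was 8037 to 17967 in AREG arrays, against 18432 to 21075 in PBS arrays, and 0 of 13 were called. Of the slow-fibre genes, a fibre type that also uses Casq2, 5 of 8 were positive at day 4 with a median of 0.36 and 0 of 8 called. The highest were Myl3 at 1.05 ± 0.29 (adjusted p = 0.0599), Myl2 at 0.99 ± 0.28 (0.0711) and Myh7 at 0.84 ± 0.27 (0.105), all of them with groups that overlapped. Of the heart genes 0 of 8 were called. The macrophage list was lower too at day 4, with 8 of 15 called and sums of 5571 to 7113 in AREG arrays, against 11400 to 15328 in PBS arrays. The part of these lists in the Casq2 result was not tested.

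**Figure D2:**
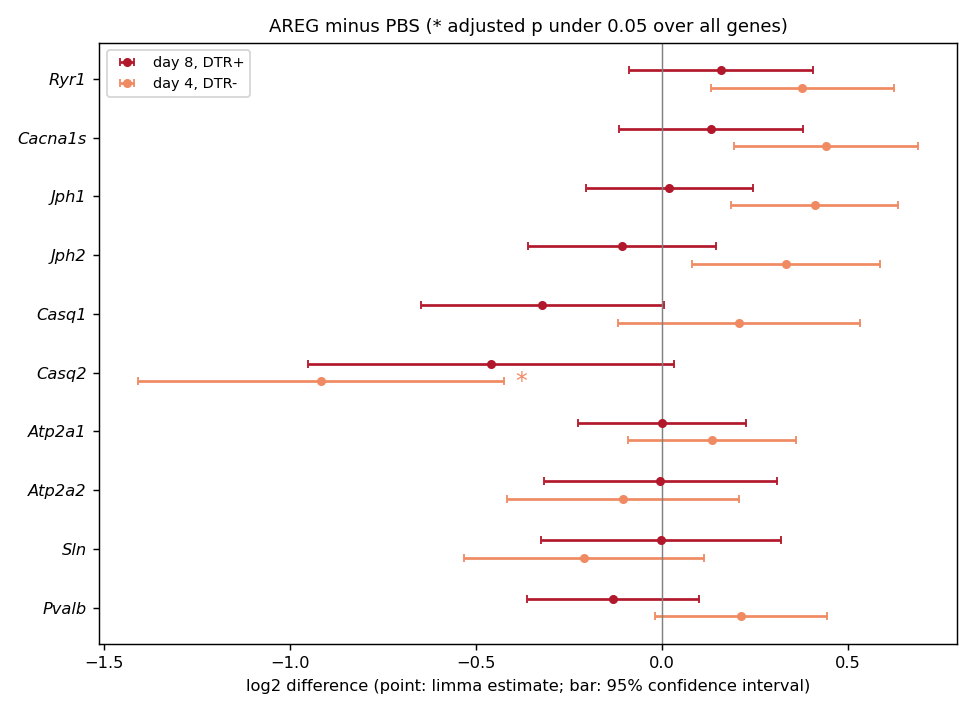
AREG minus PBS on the log2 scale for each of the 10 genes at day 8 and at day 4, with points for the limma estimate and bars for the 95% interval, a grey line at 0 and a star for an adjusted p under 0.05. At day 4 the estimates run from -0.92 for Casq2 to 0.44 for Cacna1s, 7 of 10 being above 0, and at day 8 they run from -0.46 for Casq2 to 0.16 for Ryr1.

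Neither calcium pump was called between AREG and PBS. Atp2a1 is the fast-fibre pump of the store membrane. It read 14936, 15158 and 15632 in AREG arrays of day 4, against 13154, 13860 and 14710 in PBS arrays of day 4, a difference of 0.13 ± 0.11 (adjusted p = 0.625) between groups that did not overlap. At day 8 the AREG and PBS groups averaged 14560 ± 1245 and 14537 ± 786 intensity units (SD, n = 3 each). The day 8 difference was 0.000218 with an interval of -0.23 to 0.23.

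Atp2a2 is the pump of slow fibres and heart and the general form of other cells. Its values were 3365, 4164 and 4445 in AREG arrays of day 4, against 3863, 4489 and 4467 in PBS arrays of day 4. At day 8 they were 2895, 3509 and 4240 in AREG arrays, against 3811, 3346 and 3410 in PBS arrays. The groups overlapped at both days, and the differences of -0.10 ± 0.15 and -0.00 ± 0.15 had intervals of -0.42 to 0.21 and -0.32 to 0.31.

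Sarcolipin, Sln, a small membrane protein that inhibits the pump and lets it turn over without moving calcium, was the dimmest of the set. Sln was also the only member called between day 8 DTR+ and day 4 DTR- muscle. It read 202, 203 and 131 in AREG arrays of day 8, against 91.1, 90.5 and 107 in AREG arrays of day 4. The third day 8 array was lower than the other 2 and still above all of day 4. In the PBS arrays it read 172, 175 and 181 at day 8, against 102, 116 and 115 at day 4. Sln therefore had non-overlapping groups under both treatments, 1.83-fold in AREG muscle (0.87 ± 0.15, adjusted p = 0.0100) and 1.59-fold in PBS muscle (0.67 ± 0.15, adjusted p = 0.0289). AREG minus PBS was -0.00 ± 0.15 at day 8 (interval -0.33 to 0.32) and -0.21 ± 0.15 at day 4 (adjusted p = 0.573).

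Higher groups without overlap were shown by 4.2% of all genes in AREG muscle and by 9.17% in PBS muscle. The call in PBS muscle was lost without any one of the 6 PBS arrays (adjusted p = 0.0573 to 0.132), and that in AREG muscle without either of the first 2 AREG arrays of day 4 or of day 8 (0.0548 to 0.0652), with values between 0.61 and 0.70 in PBS muscle and 0.77 to 1.08 in AREG muscle. Some T-cell genes rose at day 8 as well: 2 of 9 were called higher in AREG muscle, against 0.527% of all genes, and 6 of 9 in PBS muscle, against 1.19%. Their sums were 905 to 1589 in AREG arrays of day 8, against 680 to 843 in AREG arrays of day 4, and 1346 to 2222 in PBS arrays of day 8, against 702 to 760 in PBS arrays of day 4. Slow-fibre genes also ran higher at day 8, with 8 of 8 positive in AREG muscle (median 0.18, 0 called). In PBS muscle 6 of 8 were positive (median 0.46, 1 called higher). Macrophage genes were positive in 14 of 15 in AREG muscle (median 0.50, 1 called higher). In PBS muscle 6 of 15 macrophage genes were positive (median -0.08, 0 called). The part of these lists in the Sln result was not tested.

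Parvalbumin, Pvalb, the soluble calcium buffer of fast fibres, was bright in all arrays. It read 10821, 11586 and 12157 in AREG arrays of day 4, against 10230, 8973 and 10685 in PBS arrays of day 4. AREG arrays were above PBS arrays by 0.21 ± 0.11 (adjusted p = 0.353). At day 8 it read 10412, 10493 and 9561 in AREG arrays, against 11767, 10602 and 11041 in PBS arrays, and every AREG array was lower (-0.13 ± 0.11, adjusted p = 0.798). The difference between the effects, -0.34 ± 0.15, did not pass (adjusted p = 0.820).

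Between the days, without respect to AREG, the members other than Sln gave no call. In PBS muscle 8 of 10 members had groups without overlap, against 23.4% of all genes. Of these 6 were higher in every day 8 array than in every day 4 array, against 9.17% of all genes, namely Ryr1, Cacna1s, Casq1, Jph1, Jph2 and Sln. Atp2a2 and Casq2 were lower in every day 8 array, where 14.2% of all genes were. Casq2 averaged 1112 ± 67.6 at day 8 and 1612 ± 74.3 at day 4 (-0.54 ± 0.23, adjusted p = 0.329). Of the regenerating-fibre genes 8 of 13 were called lower over the same arrays, against 1.15% of all genes, and Mymk fell by 2.35 on the log2 scale (adjusted p = 3.82e-05).

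In AREG muscle only Sln was higher in every day 8 array, and 9 of the 10 members had a negative difference, with Jph2 and Pvalb lower in every array, against 8.97% of all genes. Casq2 averaged 835 ± 245 at day 8 and 890 ± 308 at day 4, within its spread. The 2 day comparisons use different arrays, but each shares arrays with the AREG comparisons, so the values are set side by side and no count of agreement is drawn.

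**Figure D3:**
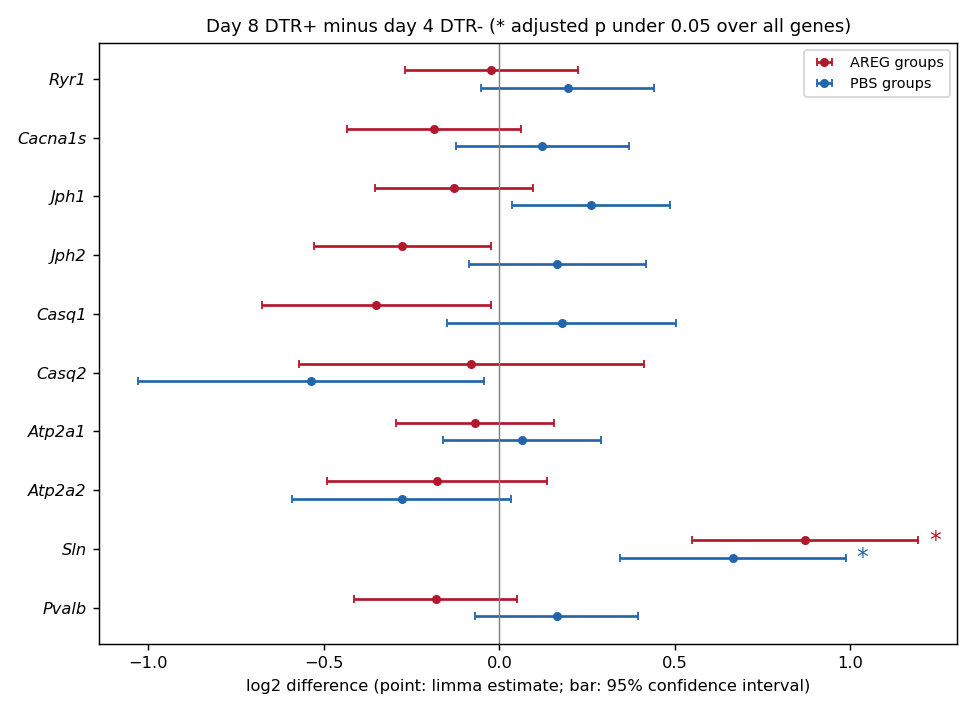
Day 8 minus day 4 on the log2 scale for each of the 10 genes in AREG and in PBS muscle, with points for the limma estimate, bars for the 95% interval, a grey line at 0 and a star for an adjusted p under 0.05. Sln lies furthest to the right under both treatments, at 0.87 in AREG muscle and 0.67 in PBS muscle, and Casq2 furthest to the left in PBS muscle at -0.54.

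The third AREG array of day 8 split the members. It was the highest of the 12 arrays for Ryr1 and Atp2a1 and the lowest for Casq1, Casq2 and Jph2. Its macrophage sum was 4824, against 13035 and 9386 in the other AREG arrays of day 8, and its regenerating-fibre sum 8037, against 17967 and 14549. These values stand beside each day 8 result above, and their part in it was not tested.

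Among further calcium genes, chosen with earlier results of these data known, 56 of 66 were measured, and 6 of the 56 were called higher in AREG muscle at day 4 and 0 lower, against 0.79% and 2.11% of all genes. Of the 14 measured partners of the release channel 0 were called, with Cacna2d1, a subunit of the t-tubule calcium channel, at 0.58 ± 0.17 (adjusted p = 0.0773) and Homer1 at 0.48 ± 0.17 (0.133). Of the 10 regulators of the store and its pump 2 rose. Pln, phospholamban, an inhibitor of the pump, read 130, 125 and 122 in AREG arrays of day 4, against 88.2, 85.8 and 94.9 in PBS arrays (0.49 ± 0.11, adjusted p = 0.0315). Pln was dim, all of these values being below the array medians of 134 to 143. Ppp1r3a, a glycogen-bound phosphatase subunit of the store membrane, rose by 0.70 ± 0.16 (adjusted p = 0.0334).

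Of the 13 channels and pumps of the surface membrane and mitochondria 2 rose: Atp2b3, a plasma membrane calcium pump, by 0.57 ± 0.13 (adjusted p = 0.0334), and Slc8a3, a sodium-calcium exchanger, by 0.48 ± 0.11 (0.0374). Of the 8 genes of t-tubule excitability Clcn1, the chloride channel that steadies the membrane, rose by 0.68 ± 0.13 (adjusted p = 0.0204), with 862, 1044 and 980 in AREG arrays, against 596, 549 and 658 in PBS arrays. Kcna7, a potassium channel, rose by 0.57 ± 0.13 (0.0334). Of the 11 forms used mainly elsewhere 0 were called, the lowest p belonging to Cacna1d (-0.41 ± 0.12, adjusted p = 0.0899) and Calr (-0.40 ± 0.12, 0.0916).

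**Figure D4:**
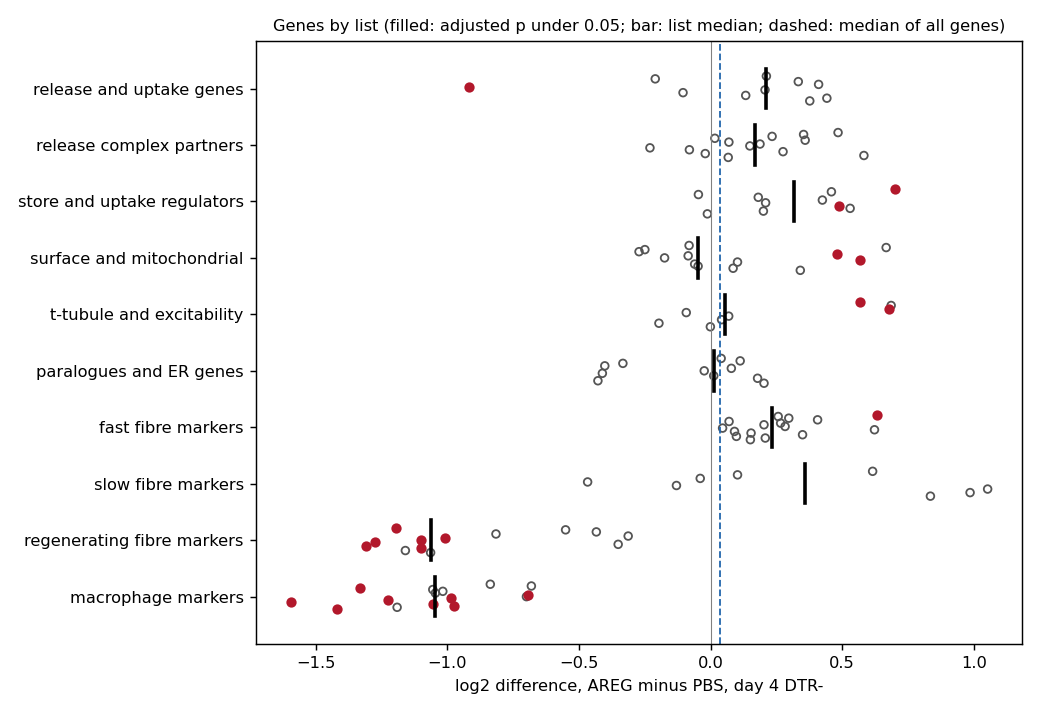
AREG minus PBS at day 4 on the log2 scale for every measured gene of the 10 members, the 5 further calcium lists and the fast-fibre, slow-fibre, regenerating-fibre and macrophage lists, 1 row per list, with filled points for genes called by limma over 19752 genes, a bar for each list's median and a dashed line for the median of all genes. The called genes of the further calcium lists all lie to the right of 0, between 0.48 and 0.70, and the member called, Casq2, lies at -0.92.

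At day 8 none of these 56 genes was called, with Mrln, myoregulin, another inhibitor of the pump, at 0.49 ± 0.16 (adjusted p = 0.600). Its mean effect over both settings passed (0.51 ± 0.11, adjusted p = 0.0278), as did those of Clcn1 (0.45 ± 0.09, 0.0207) and Kcna7 (0.35 ± 0.09, 0.0452), where 0.415% of all genes were called higher. With single arrays left out in turn, the mean effect lost its call without 6 of the 12 for Mrln, 4 for Clcn1 and 10 for Kcna7. Between the days 1 of the 56 was called in PBS muscle, against 2.34% of all genes (1.15% lower), and 0 in AREG muscle, against 0.719%. The gene called was Ryr3, the release channel of forming muscle and of other tissues, lower by 0.60 on the log2 scale (SE 0.15, adjusted p = 0.0418). In PBS muscle Ryr3 read 75.0, 79.2 and 66.6 at day 8, against 117, 132 and 89.4 at day 4. All of these values were below the array medians of 134 to 143. The count of 6 at day 4 ranged from 0 to 27 over 22 settings. Over the same settings the share of all genes called ran from 0% to 26.9%, the latter with array weights. Each of the 6 calls was lost when some single arrays were left out, 3 of the 12 for Clcn1 and 9 of the 12 for Slc8a3 at the extremes. The Ryr3 call was lost without 7 of the 12.

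**Figure D5:**
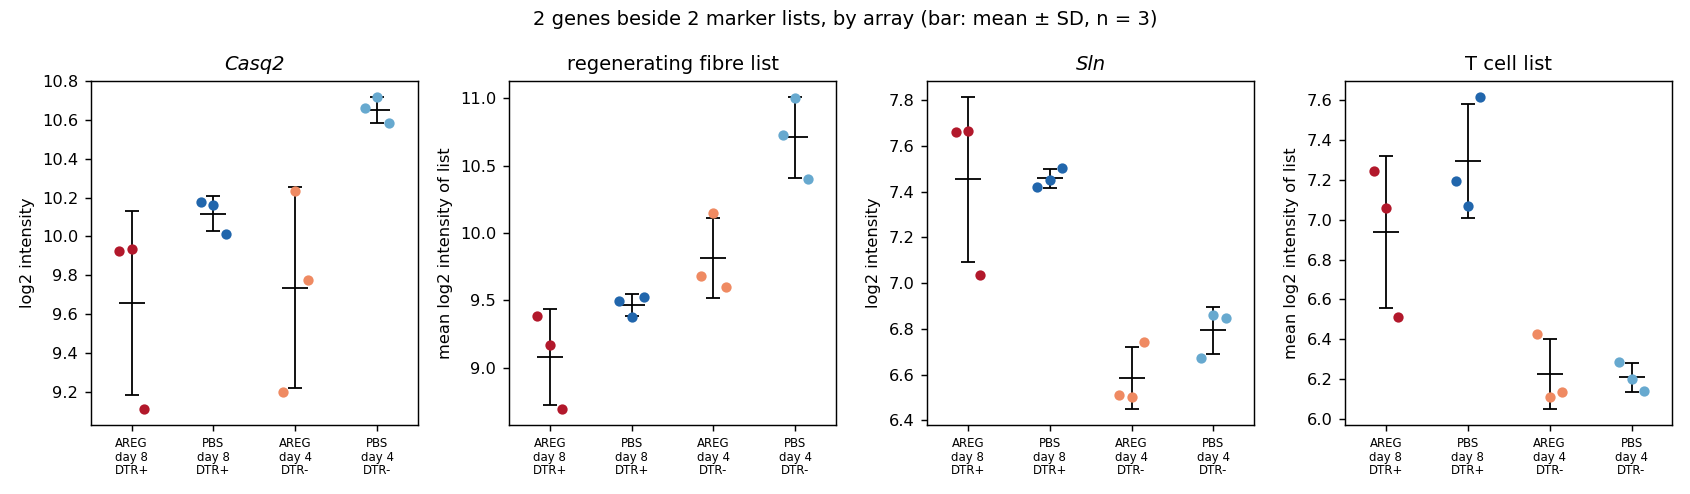
Casq2 beside the mean log2 level of the regenerating-fibre list, and Sln beside that of the T-cell list, in each of the 12 arrays, on log2 axes that do not start at 0, with points for arrays, bars for the group mean ± SD (n = 3) and groups ordered AREG then PBS at day 8, then AREG and PBS at day 4. Casq2 and the regenerating-fibre list both stand highest in the PBS arrays of day 4, and Sln and the T-cell list both stand higher at day 8.

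For each member the gene outside the set with the most similar pattern, taken from genes no dimmer than the median gene, was found by the root mean square difference over the 12 arrays. The closest were Ttn for Atp2a1 (0.0348 log2 units), Dst for Ryr1 (0.0441) and Ccng1 for Pvalb (0.0465), followed by Slc49a4 for Jph1 (0.0570), Stac3 for Jph2 (0.0633) and Adcy9 for Cacna1s (0.0723). Stt3b for Atp2a2 and Mdga1 for Casq1 lay at 0.0765 and 0.0851, and the loosest matches were Ttc9 for Casq2 (0.142) and Tapbp for Sln (0.157). Casq2 and Sln had the most distant nearest gene. Values were centred but not scaled, so the distance grows with how much a gene varies over the arrays. Sln was also dimmer than the median gene, while its candidates were not. No link between these distances and the calls is drawn.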

How the data were processed

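RNA from whole muscle was measured on 12 Affymetrix Mouse Gene 1.0 ST arrays, per the labels. Affymetrix Power Tools and RMA, which corrects background, equalises the arrays and summarises probes, were run by the authors, per the submitters' processing notes. For tool versions, genome build and annotation, nothing is given in the sources used here. Values were deposited as intensity on a linear scale, 4.65 to 21512, for 24922 clusters with 0 missing. They were taken to log2 here with no pseudocount and no filter. The array's gene table gave 1 symbol for 21425 clusters, several for 1399 and none for 2098; only the first were used, and 921 genes with several clusters took the brightest, leaving 19752 genes.

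The fit used lmFit and eBayes of limma 3.58.1 (R 4.3.3), with 4 group means and 1 spread (8 residual and 7.1 prior degrees of freedom), two-sided, with Benjamini-Hochberg adjustment over all genes and a threshold of 0.05. The method was tested on simulated data with independent noise and planted changes larger than any member difference, so smaller changes were not covered. An exact permutation test of 3 against 3 cannot give a p below 0.1 and was not used. Precision is limited by how many arrays there are. The 10 members were named in every comparison, with up to 4 called genes of each further calcium list, or up to 2 with the smallest p where none was called. Members, lists and tests were chosen with earlier results of these data known.

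Residuals of arrays with the same replicate number correlated at 0.558, 0.201 and 0.511 at day 4, and at -0.198, 0.123 and -0.00332 at day 8. At day 4 the second AREG array correlated at 0.27 with the third PBS array, above its 0.201 with the second. The first AREG and PBS arrays of day 4 were also those with the narrowest spread of values. By a rule of every same-number pair over 0.1, the numbers in the labels pair arrays at day 4, though not cleanly, and not at day 8. A fit with the number as a block was an alternative. Others were the 6 arrays compared alone, eBayes with trend and robust, array weights, dropping genes dimmer than the median, quantile normalisation, median centring, a pseudocount of 32, the mean over a gene's clusters and leaving out each array in turn. Leaving out both first arrays of day 4 was added after seeing the data.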

Additional observations from a re-analysis of the deposited data

Results flagged for a closer look

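Pvalb was higher in all 3 AREG arrays than in all 3 PBS arrays at day 4 and lower in all 3 AREG arrays than in all 3 PBS arrays at day 8. The AREG effect at day 8 minus that at day 4 was -0.34 ± 0.15 (log2 ± SE). The limma test of this difference gave an unadjusted p of 0.0400 and an adjusted p of 0.820 over 19752 genes, and the sign was kept without each array in turn (-0.40 to -0.27). No group held 4 or more arrays, so single arrays were not tested for lying apart.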

How the results depend on the processing

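Day and genotype changed together, and 3 arrays per group limit every test. The number of members called at day 4 was 1 in the values reported, with 2.9% of all genes called. It was 0 with trend and robust (2.67% of all genes), median centring (2.35%) or both first arrays of day 4 left out (0%). It was 2 with a pseudocount of 32 (1.81%), the mean over clusters (2.85%) or the replicate block (pairing the day 4 arrays, 4.63%). It was 3 with the filter (7.62%), 4 with quantile normalisation (4.44%) and 7 with array weights (26.9%). The weights ranged from 0.167 to 7.43. Shares with the filter are of the genes kept. For the mean effect the number of members called was 0 with centring (2.25% of all genes) or without both arrays (0.127%). It was 2 with the filter (8.46%) or the replicate block (5.59%), 3 with quantile (3.62%) and 5 with weights (24.8%). With the pseudocount Casq2 was lost (adjusted p = 0.0714 at day 4, 0.0574 in the mean), the calls being Cacna1s and Jph1 at day 4 (0.0423 and 0.0341) and Cacna1s in the mean (0.0486). For the difference of effects weights called 4 members and 11.3% of all genes, against 0% of all genes in the values reported. For Sln's PBS comparison the number was 2 with 6 arrays (3.84% of all genes) or weights (8.35%). The second member was Casq2, lower at day 8 (limma, adjusted p = 0.0121 and 0.0364). The number was 0 with the filter (3.14%), which leaves Sln out, or without both arrays (1.42%). In AREG muscle the number was 0 with 6 arrays (0.435% of all genes), the filter (1.32%) or without both arrays (0.273%), and 5 with weights (33.8%). Leaving out 1 array gave 0 to 3 members at day 4, 0 to 3 for the mean and 0 to 1 in both day comparisons. The share of all genes called then ran from 0.0456% to 6.76% at day 4 and from 0.172% to 7.53% for the mean. Between the days it ran from 1.06% to 3.64% in PBS muscle and from 0.4% to 2.32% in AREG muscle. The block changed no other member's call. Differences near 0 changed sign. Under weights these were Atp2a2 at day 4 (6.08e-05), Atp2a1 (-0.0408), Jph2 (0.0650) and Sln (0.183) at day 8, Casq1 (0.0474) and Sln (0.0290) in the mean, Atp2a2 in the difference (-0.0256) and Casq2 by day in AREG muscle (0.0771). At day 8 Atp2a2 was 0.00765 and Sln 0.0464 after quantile normalisation, they were 0.0385 and 0.0388 after centring, Sln 0.000457 with the pseudocount and Jph1 -0.0162 over clusters, and Ryr1 by day in AREG muscle was 0.0225 after centring. Without 1 array the ranges were -0.187 to 0.0134 for Atp2a2 at day 4; at day 8 -0.0665 to 0.0529 for Atp2a1, -0.14 to 0.13 for Atp2a2, -0.0138 to 0.0712 for Jph1, -0.207 to 0.00973 for Jph2 and -0.11 to 0.20 for Sln; in the mean -0.123 to 0.0144 for Atp2a2 and -0.130 to 0.0537 for Casq1; -0.0372 to 0.238 for Atp2a2 in the difference; and by day in AREG muscle -0.35 to 0.19 for Casq2 and -0.0995 to 0.0696 for Ryr1. The cause was not tested.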
